A study of Mus musculus with 6 samples.

Results

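Antiviral effector genes of the interferon response were followed in thymocytes of the DN3 stage, at which a rearranged T cell receptor beta chain is tested. The genes were taken by name from a list of 46, drawn up with earlier results of these data known, and every probe named for one of them or for its older symbol was taken. All 46 had at least 1 probe, with 77 probes in all, among 28889 genes of the array. RNA came from DN3 cells sorted from total thymocytes of 3 wild type (WT) and 3 miR-185 transgenic (miR-185 Tg) samples, both given the strain C57BL/6, and each sample was hybridised to 1 Illumina bead array. The gate took CD25+ cells that were negative for CD44, CD4, CD8, B220, NK1.1, the gamma-delta T cell receptor, CD11b and CD11c. The Tg mice carry a transgene of miR-185, a microRNA. The promoter that drives it, the number of founder lines, the age of the mice and whether each sample came from a separate mouse are unknown from the labels. Any p-value here thus reflects how far these samples scatter, and part of that scatter may be technical.

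Interferons bound to their receptors activate JAK kinases, and the transcription factors switched on by them bind interferon-stimulated response elements in the promoters of target genes. The induced effectors act at many steps of a viral infection, from entry and RNA sensing to translation, assembly and release. Some of them, such as the ISG15 protease USP18, also restrain the signal itself. The question of the study was which genes miR-185 targets in DN3 cells, and the comparison described here asks how this set of effectors differed between Tg and WT cells. In RNA of a sorted population, more RNA in every cell and a larger share of cells with much of it cannot be told apart.

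The arrays were not equally far from each other. Each array detected between 17879 and 18913 of 45281 probes, on a median of 41 to 42 beads for a probe, and the number of arrays limits the precision. Tg 2 stood alone on the leading principal component, which carried 45.6% of the variance. Over all tested genes the median SD between the 3 Tg arrays was 0.33 on the log2 scale, against 0.15 between the 3 WT arrays. WT 2 and WT 3 differed by 2.55 times the bead noise in mean square over 3938 bright probes, while every other pair of arrays differed by at least 15.6 times. Ddx3y, a gene of the Y chromosome, read 6.06 (log2) on Tg 2, where the remaining arrays read 9.06 to 10.49. Of 8 DN3 markers, 7 were detected on all 6 arrays, among them Ptcra, the pre-T cell receptor alpha chain, and Cd7 was detected on 1. Cd8a was detected on no array and Cd4 on 2, while Cd8b1 was detected on all 6. Results that rest on Tg 2 or on the pair WT 2 and WT 3 are given with and without them.

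The effectors stood higher in Tg cells. Of the 46 genes, 37 had a probe detected on at least 3 of the 6 arrays and were tested, and of these 14 rose, 0 fell and 23 did not pass (limma, Benjamini-Hochberg adjusted p under 0.05 over 12427 genes). Over all genes tested, 2.56% were called higher and 1.68% lower. The 14 genes that rose were Oasl2, Ifitm3, Oas1g, Isg20, Usp18, Ifit3, Isg15, Oasl1, Oas2, Rtp4, Cmpk2, Mx2, Ifi27l2a and Ifi27, by 1.05 to 2.72 on the log2 scale. The median log2 difference of the 37 tested genes was 1.07, against -0.0014 over all genes tested, and 35 of the 37 differences were above 0. The 3 Tg arrays lay above the 3 WT arrays without overlap in 27 of the 37, and below them in 0, where 14.9% of all genes tested lay above and 13.2% below. Oas1a and Oas3, both among the 27, passed the detection filter through the Tg arrays alone, so their separation follows largely from that filter. Among the 35 effectors detected on all 6 arrays the same fit on such genes called 14 higher, beside 2.74% of all genes, with a median difference of 1.07. A further 14 effectors were higher at an unadjusted p under 0.05, a mark that 11.1% of all genes reached in that direction, without passing the adjusted threshold, and 8 of the 23 that did not pass had an adjusted p between 0.05 and 0.1.

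The number of effectors called depended on single arrays, while their median difference moved little. Without Tg 2, 27 effectors were called higher, beside 7.49% of all genes, and without Tg 3, 17 were called, beside 3.42%. Without Tg 1 or without WT 2, 4 were called higher, beside 0.241% of all genes in each case. Without WT 1 and without WT 3 limma called 0 effectors, beside 0.00805% and 0.0161% of all genes called higher. With WT 2 and WT 3 averaged as 1 sample, 3 effectors were called (Oasl2, Usp18 and Ifitm3), beside 0.185% of all genes. Across the 6 fits that each left out 1 array, the median difference of the effectors ranged from 1.00 to 1.17, and 0 effectors were called lower in any of them.

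**Figure D1:**
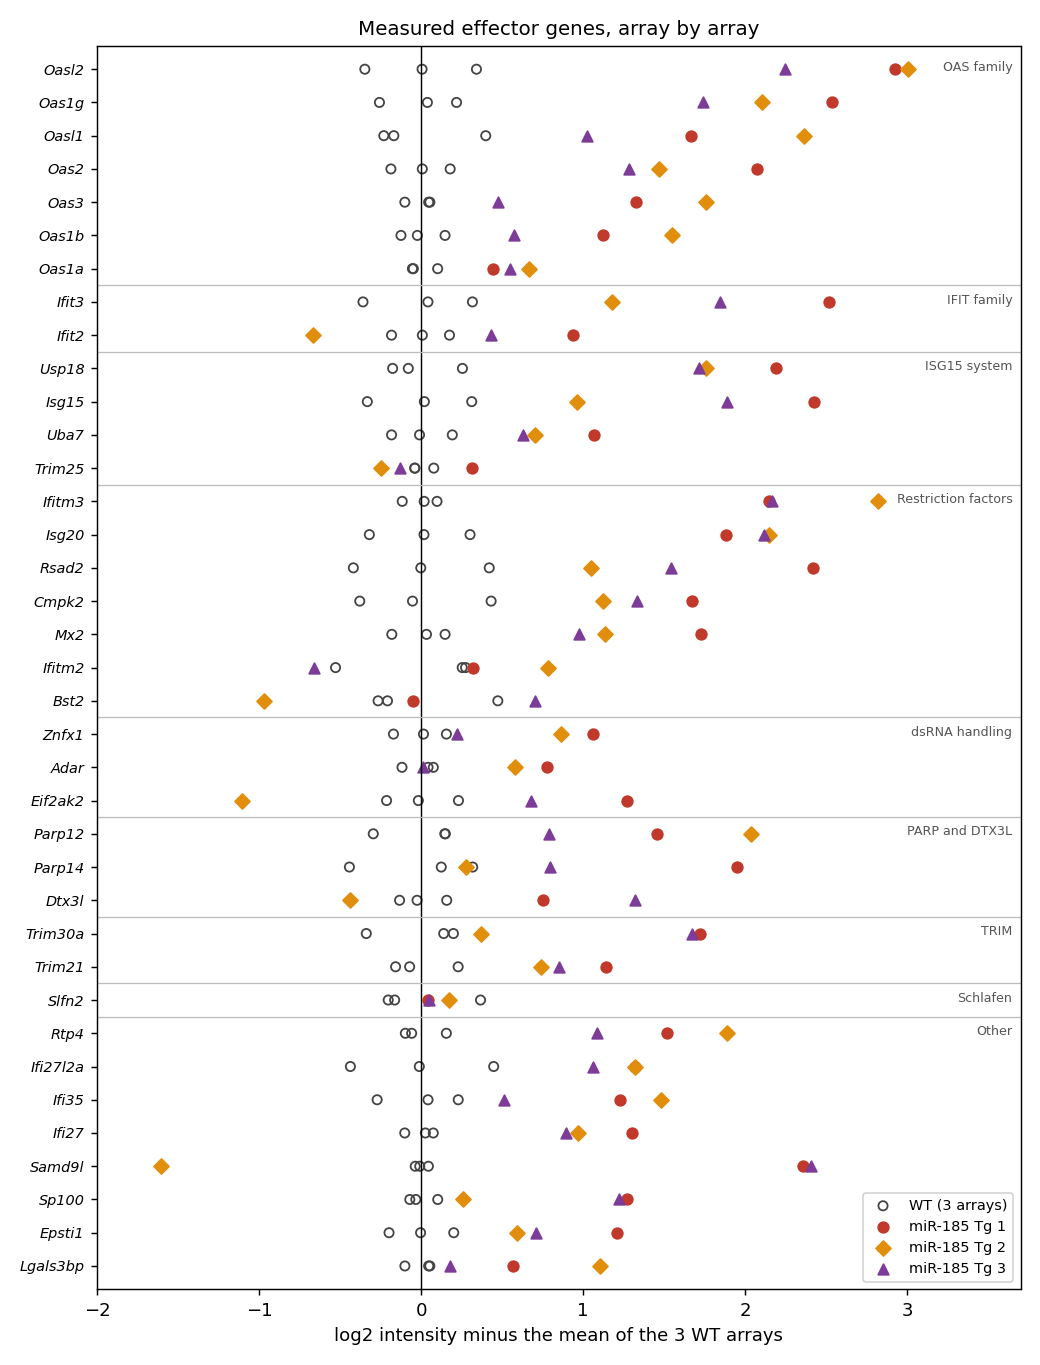
Log2 intensity of the 37 tested effectors on each array, as the difference from the mean of the 3 WT arrays (x axis), with 1 row per gene grouped by function. Open circles are WT arrays and filled symbols the 3 Tg arrays. Most Tg symbols lie to the right of the circles, while Tg 2 lies left of every circle for Samd9l, Eif2ak2, Dtx3l, Ifit2, Bst2 and Trim25. Oas1a and Oas3 were detected on no WT array.

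**Figure D2:**
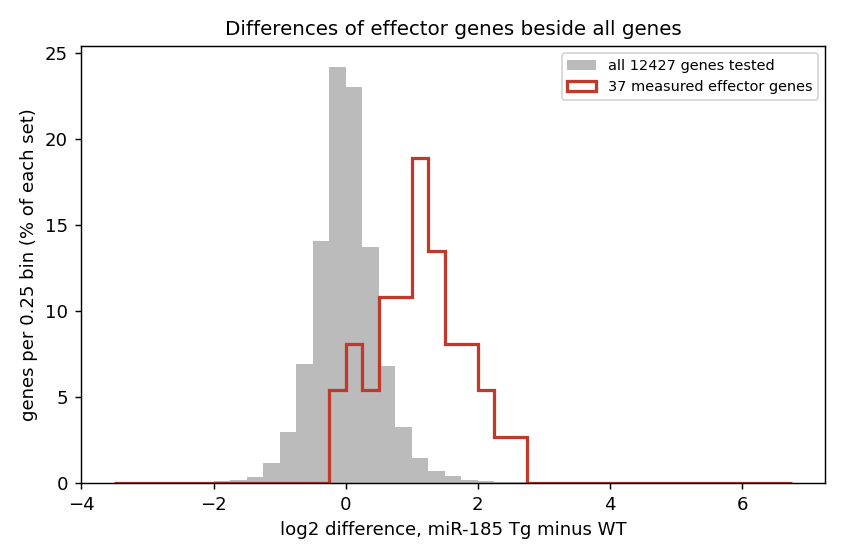
Share of genes (y axis, percent of each set) in bins of the log2 difference between miR-185 Tg and WT (x axis). The 12427 genes tested centre on -0.0014 and the 37 effectors on 1.07.

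A letter pattern of the interferon response was more frequent in the promoters of the effectors than in those of all genes. Even so, 21 of the 36 effectors with a window lacked it. The effectors were listed as interferon-stimulated genes, so this excess follows from the list and does not bear on their levels in Tg cells. The core of the interferon-stimulated response element was searched as GAAA, any 2 bases and GAAA on both strands, overlapping matches included, in the RefSeq windows of assembly GRCm38.p6 that run from 250 bases before to 50 bases after an annotated start. The other 15 held it, or 41.7%, against 3.99% of the 27025 genes with a window. It stood in 4 of 8 effectors that rose and have a window, in 8 of 21 that were tested and did not pass, and in 3 of 7 that were not tested. A match is a run of letters and not a shown site of binding. The 5 windows printed here pair genes that rose (Isg15, Ifit3, Ifitm3) with genes that did not pass (Ifitm2, Eif2ak2), and capitals mark the matches, on the gene's own strand. Isg15 lies at chr4:156200769-156201068 on the minus strand, Ifit3 at chr19:34583279-34583578 on the plus strand, Ifitm3 at chr7:141010695-141010994 on the minus strand, Ifitm2 at chr7:140955912-140956211 on the minus strand and Eif2ak2 at chr17:78882523-78882822 on the minus strand.
Isg15 promoter: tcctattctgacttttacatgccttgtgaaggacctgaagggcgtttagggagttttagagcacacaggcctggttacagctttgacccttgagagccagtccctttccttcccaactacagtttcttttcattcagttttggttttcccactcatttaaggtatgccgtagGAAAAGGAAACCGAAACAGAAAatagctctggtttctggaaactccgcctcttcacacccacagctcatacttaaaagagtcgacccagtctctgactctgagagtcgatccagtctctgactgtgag
Ifit3 promoter: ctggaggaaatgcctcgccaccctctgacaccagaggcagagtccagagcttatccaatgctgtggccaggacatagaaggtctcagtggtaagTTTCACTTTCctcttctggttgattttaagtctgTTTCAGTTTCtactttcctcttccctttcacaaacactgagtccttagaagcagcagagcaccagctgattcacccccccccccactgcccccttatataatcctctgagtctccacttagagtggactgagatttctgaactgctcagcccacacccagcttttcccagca
Ifitm3 promoter: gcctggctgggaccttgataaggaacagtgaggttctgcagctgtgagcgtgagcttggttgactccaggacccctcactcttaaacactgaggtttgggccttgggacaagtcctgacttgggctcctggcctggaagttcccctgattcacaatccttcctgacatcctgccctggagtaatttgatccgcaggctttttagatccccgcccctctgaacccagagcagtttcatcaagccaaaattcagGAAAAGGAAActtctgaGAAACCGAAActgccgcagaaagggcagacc
Ifitm2 promoter: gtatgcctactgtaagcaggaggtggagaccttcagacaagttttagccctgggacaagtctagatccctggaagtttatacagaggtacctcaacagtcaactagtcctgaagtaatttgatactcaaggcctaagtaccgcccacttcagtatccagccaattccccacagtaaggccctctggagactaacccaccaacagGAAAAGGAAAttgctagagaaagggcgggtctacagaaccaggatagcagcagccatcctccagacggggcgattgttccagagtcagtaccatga
Eif2ak2 promoter: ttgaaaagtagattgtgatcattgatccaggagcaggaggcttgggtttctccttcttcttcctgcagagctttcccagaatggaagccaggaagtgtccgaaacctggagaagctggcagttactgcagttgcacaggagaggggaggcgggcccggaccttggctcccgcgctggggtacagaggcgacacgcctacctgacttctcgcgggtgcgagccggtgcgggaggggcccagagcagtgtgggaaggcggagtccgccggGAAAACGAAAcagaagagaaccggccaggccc
Isg15 held 3 overlapping matches, the first beginning 78 bases before the start. Ifit3 held 2 on the opposite strand, where the printed letters read TTTC, any 2 bases and TTTC. Ifitm3 held 2 matches just after its annotated start, and its relative Ifitm2, whose level did not pass the test, held 1 before it. Bst2 held 2 overlapping matches and did not pass either, so both outcomes occurred among genes that hold these letters.

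The 2'-5' oligoadenylate synthetases (OAS) make a short messenger from ATP on binding double-stranded RNA, and that messenger activates RNase L, which cleaves RNA. Of the 5 members detected on all 6 arrays, 4 rose, and each of the 5 lay higher on every Tg array than on every WT array. The other two, Oas3 and Oas1a, entered the test only through the Tg arrays. Oasl2, an OAS-like gene, had log2 intensities of 7.56, 8.25 and 7.92 on the WT arrays and of 10.83, 10.91 and 10.16 on the Tg arrays. The 3 Tg values lay within 0.76 of each other and far above the WT values. The rise of 2.72 ± 0.28 (SE, n = 3 and 3, 6.61-fold, limma adjusted p = 0.0062) was the largest of the 37 on the probes used. A second, dimmer probe of Oasl2 gave a smaller difference of 1.71 (limma adjusted p = 0.024 over the probes). With the mean of its kept probes the difference of Oasl2 was 2.22, below that of Ifitm3 (2.38). Oas1g, one of several near-identical Oas1 copies of the mouse, read 6.86, 7.34 and 7.16 in WT and 9.65, 9.22 and 8.86 in Tg, a rise of 2.13 ± 0.27 (adjusted p = 0.010). Oasl1, whose protein in mice holds back translation of Irf7 mRNA, read 6.25, 6.88 and 6.31 in WT and 8.15, 8.85 and 7.50 in Tg. Its Tg arrays spread over 1.34, and the rise of 1.68 ± 0.37 passed narrowly (adjusted p = 0.047). Oas2 read 5.44, 5.81 and 5.63 in WT and 7.70, 7.10 and 6.91 in Tg, a rise of 1.61 ± 0.27 (adjusted p = 0.022).

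The other 3 OAS genes did not pass. Oas1b, which in common laboratory strains encodes a truncated protein, read 5.001, 4.73 and 4.83 in WT and 5.98, 6.40 and 5.43 in Tg (difference 1.08 ± 0.26, adjusted p = 0.058). Oas3 and Oas1a were detected on no WT array and on all 3 Tg arrays, so their folds are lower bounds, in which each WT array counts with the lowest detected signal of that array, or with the probe's signal where this is higher. Oas3 stood at least 1.82-fold higher in Tg (adjusted p = 0.069). Oas1a was at least 1.15-fold higher (adjusted p = 0.0501), with 4.27, 4.42 and 4.26 in WT and 4.76, 4.98 and 4.86 in Tg. Oasl1 and Oasl2 are adjacent genes, as are Oas2 and Oas3, and Oas1g and Oas1a. The Oas1 copies are alike enough that a probe for one may also bind RNA of another, so their separate values are uncertain.

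The IFIT proteins bind viral RNA through tetratricopeptide repeats and block its translation. Of the 3 genes, Ifit3 rose, Ifit2 did not pass and Ifit1 was not detected on any array. Ifit3 read 5.68, 6.35 and 6.08 in WT and 8.55, 7.22 and 7.88 in Tg, a rise of 1.85 ± 0.37 (3.60-fold, adjusted p = 0.036) with Tg 1 highest. Its second, dimmer probe gave a difference of 0.62 that did not pass (adjusted p = 0.14 over the probes). Ifit2, the next gene to Ifit3 on chromosome 19, read 7.48, 7.12 and 7.31 in WT and 8.24, 6.63 and 7.73 in Tg. Tg 1 and Tg 3 lay above the WT arrays and Tg 2 below all of them, so the groups overlapped (difference 0.23 ± 0.40, 95% interval -0.69 to 1.16, adjusted p = 0.80). The difference of Ifit3 exceeded that of Ifit2 by 1.61 on the log2 scale, the 3 Tg arrays lying above the 3 WT arrays in Ifit3 minus Ifit2 (exact two-sided permutation p = 0.1, the smallest that 3 against 3 allows). The pair sets a gene that rose beside one that did not pass, so this p is no independent support.

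ISG15 is a ubiquitin-like protein that is joined to other proteins by an enzyme cascade. Isg15 itself read 8.07, 8.71 and 8.42 in WT and 10.82, 9.36 and 10.28 in Tg. Every Tg array lay above the WT arrays, with Tg 2 lowest, and the rise was 1.76 ± 0.37 (3.38-fold, adjusted p = 0.041). Usp18, the protease that removes ISG15 and that also blocks signalling at the type I interferon receptor, read 8.51, 8.94 and 8.61 in WT and 10.88, 10.45 and 10.41 in Tg. On this probe the Tg arrays agreed within 0.48, and Usp18 rose by 1.89 ± 0.21 (3.71-fold, adjusted p = 0.0076). Its second probe read 5.53, 7.07 and 6.54 in WT and 8.69, 8.39 and 6.92 in Tg, with Tg 3 inside the WT range, and did not pass (difference 1.62, adjusted p = 0.15 over the probes). Uba7, the enzyme that activates ISG15, read 10.35, 10.72 and 10.52 in WT and 11.60, 11.24 and 11.16 in Tg. These did not overlap, and the difference of 0.80 ± 0.18 lay just outside the threshold (adjusted p = 0.051). Trim25, an E3 ligase that ubiquitinates the RNA sensor RIG-I, read 10.55, 10.67 and 10.55 in WT and 10.91, 10.35 and 10.46 in Tg (difference -0.02 ± 0.19, 95% interval -0.455 to 0.411, adjusted p = 0.97). The difference of Isg15 exceeded that of Trim25 by 1.78 (exact two-sided permutation p = 0.1, the smallest that 3 against 3 allows). This pair too sets a gene that rose beside one that did not pass. Herc6, the mouse ligase for ISG15, was detected on no array.

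Among genes of restriction factors, which hinder entry, replication or release, 4 of 7 tested rose. Ifitm3, a membrane protein that blocks fusion of enveloped viruses in endosomes, read 7.59, 7.81 and 7.73 in WT and 9.85, 10.53 and 9.87 in Tg. The Tg arrays lay more than 2 log2 units above the highest WT array, and the rise was 2.38 ± 0.24 (5.19-fold, adjusted p = 0.0062). Isg20, an exonuclease that degrades RNA, read 5.68, 6.30 and 6.02 in WT and 7.88, 8.15 and 8.11 in Tg, a rise of 2.05 ± 0.25 (4.14-fold, adjusted p = 0.0085). Its Tg arrays were among the closest of the set, with an SD of 0.15. Mx2, a dynamin-like GTPase, read 5.62, 5.95 and 5.84 in WT and 7.53, 6.94 and 6.78 in Tg, a rise of 1.28 ± 0.26 (adjusted p = 0.039). Mx1, which is defective in C57BL/6 mice, was detected on 2 Tg arrays and no WT array and was not tested, with 4.57, 4.60 and 4.40 in WT and 5.57, 4.79 and 4.40 in Tg.

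Cmpk2 and Rsad2 are adjacent genes whose products, a nucleotide kinase and viperin, together supply and make a chain-terminating nucleotide. Cmpk2 read 6.05, 6.86 and 6.38 in WT and 8.10, 7.55 and 7.76 in Tg and rose by 1.38 ± 0.29 (adjusted p = 0.041). Rsad2 read 6.77, 7.60 and 7.18 in WT and 9.60, 8.23 and 8.73 in Tg. Its difference of 1.67 ± 0.38 was larger than that of Cmpk2, but both groups were wider and it did not pass (adjusted p = 0.054). Ifitm2, next of kin to Ifitm3, read 10.26, 11.07 and 11.04 in WT and 11.11, 11.58 and 10.13 in Tg, with overlapping groups (difference 0.15 ± 0.38, 95% interval -0.73 to 1.03, adjusted p = 0.88). The difference of Ifitm3 exceeded that of Ifitm2 by 2.23 (exact two-sided permutation p = 0.1, the smallest that 3 against 3 allows). Here again a gene that rose is set beside one that did not pass. Bst2, or tetherin, which holds budding virions on the cell, read 8.44, 8.50 and 9.18 in WT and 8.66, 7.74 and 9.41 in Tg (difference -0.11 ± 0.42, 95% interval -1.08 to 0.87, adjusted p = 0.93). The highest and the lowest of its 6 values were both Tg arrays.

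None of the 3 tested genes of double-stranded RNA handling passed. Eif2ak2 encodes PKR, the kinase that stops translation on binding double-stranded RNA, and read 9.02, 9.46 and 9.21 in WT and 10.501, 8.12 and 9.91 in Tg. Tg 1 and Tg 3 lay above every WT array and Tg 2 lay 0.89 below the lowest (difference 0.28 ± 0.54, 95% interval -0.97 to 1.53, adjusted p = 0.83). Adar, which edits adenosine to inosine in double-stranded RNA, had a difference of 0.45 ± 0.24 (adjusted p = 0.36), and its 5 kept probes gave 0.16 to 0.70. Znfx1, a helicase-like sensor of viral RNA, read 7.03, 7.36 and 7.22 in WT and 8.26, 8.07 and 7.42 in Tg, without overlap and without passing (difference 0.72 ± 0.28, adjusted p = 0.20).

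The mono-ADP-ribosyltransferases and their partner Dtx3l, an E3 ligase that pairs with PARP9, gave 3 tested genes, all with differences above 0 and none past the threshold. Parp12, a zinc finger member of the family, read 6.21, 6.65 and 6.66 in WT and 7.97, 8.54 and 7.30 in Tg (difference 1.43 ± 0.34, adjusted p = 0.061). Its Tg arrays lay above all WT arrays and Tg 2 was the highest. Parp14 and Dtx3l, neighbours on chromosome 16, did otherwise. Parp14 read 9.45, 10.21 and 10.02 in WT and 11.84, 10.17 and 10.69 in Tg, with Tg 2 inside the WT range (difference 1.01 ± 0.41, adjusted p = 0.23). A second probe, listed under the gene's older clone name, was detected on no WT array and was kept through the Tg arrays alone. It read 5.89, 4.95 and 6.55 in Tg, a level higher by a factor of at least 2.18. That probe did not pass (limma adjusted p = 0.10 over the probes). Dtx3l read 11.32, 11.14 and 11.03 in WT and 11.92, 10.73 and 12.48 in Tg, with Tg 2 below every WT array (difference 0.54 ± 0.39, adjusted p = 0.50). Parp9, the next gene along, was detected on no array.

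Trim21, a cytosolic receptor for antibody-coated virus, read 8.74, 9.13 and 8.83 in WT and 10.04, 9.64 and 9.75 in Tg. The groups did not overlap, and the difference of 0.91 ± 0.20 missed the threshold (adjusted p = 0.0501). A second, dim probe of Trim21 read 5.05, 5.36 and 4.95 in WT and 4.98, 5.07 and 4.88 in Tg (difference -0.14, adjusted p = 0.71 over the probes). Trim21 was the 1 gene of 14 with several kept probes whose probes differed in sign. Trim30a, a negative regulator of innate signalling in mice with close relatives beside it in the genome, read 7.86, 8.34 and 8.40 in WT and 9.92, 8.57 and 9.87 in Tg. Tg 1 and Tg 3 were about equal and Tg 2 was barely above the WT arrays (difference 1.25 ± 0.38, adjusted p = 0.11).

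Of 4 Schlafen genes, which include regulators of thymocyte growth and of tRNA, 1 was tested. Slfn2 read 5.45, 5.98 and 5.41 in WT and 5.66, 5.79 and 5.66 in Tg, with the Tg values inside the WT range (difference 0.09 ± 0.21, 95% interval -0.40 to 0.57, adjusted p = 0.87). Slfn1 was detected on 2 WT arrays and no Tg array, and Slfn5 and Slfn8 on none. Ifi44 and Xaf1, effectors of other kinds, were likewise detected on no array, which completes the 9 genes that were not tested.

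Of the 8 remaining effectors tested, 3 rose. Rtp4, a chaperone of receptors that is induced by interferon, read 5.34, 5.56 and 5.30 in WT and 6.92, 7.29 and 6.49 in Tg, a rise of 1.497 ± 0.25 (2.82-fold, adjusted p = 0.023). Ifi27 and Ifi27l2a are adjacent members of a family of small hydrophobic proteins, and both rose. Ifi27 read 11.85, 12.03 and 11.98 in WT and 13.25, 12.92 and 12.84 in Tg, with small spreads and a rise of 1.05 ± 0.14 (2.08-fold, adjusted p = 0.012). Ifi27l2a read 7.90, 8.32 and 8.78 in WT and 9.65, 9.65 and 9.40 in Tg, a rise of 1.23 ± 0.26 (2.35-fold, adjusted p = 0.041). The array uses older symbols for this pair, so which probe belongs to which gene rests on the older names in the RefSeq table.

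Ifi35, Epsti1, Sp100 and Lgals3bp lay higher on every Tg array than on every WT array without passing. Ifi35, a leucine zipper protein, had a difference of 1.07 ± 0.30 (adjusted p = 0.092). Epsti1 had a difference of 0.83 ± 0.25 (adjusted p = 0.11). Sp100, a scaffold of nuclear bodies that restrict DNA viruses, read 7.49, 7.63 and 7.46 in WT and 8.80, 7.78 and 8.75 in Tg (difference 0.92 ± 0.31, adjusted p = 0.14). Tg 2 was again close to the WT arrays for Sp100. Lgals3bp, a secreted galectin-binding glycoprotein, showed another order, with 10.39, 10.54 and 10.53 in WT and 11.05, 11.59 and 10.67 in Tg (difference 0.62 ± 0.24, adjusted p = 0.20). Its highest value was on Tg 2.

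Samd9l, which restricts poxviruses and restrains growth of blood cells, had the widest Tg spread of the set. It read 9.66, 9.71 and 9.63 in WT and 12.03, 8.06 and 12.08 in Tg. The WT arrays lay within 0.08 of each other, Tg 1 and Tg 3 within 0.05, and Tg 2 lay 1.57 below the lowest WT array. Its SD over the Tg arrays, 2.30, ranked 5 among 12427 genes. The fitted difference of 1.05 ± 0.96 (95% interval -1.15 to 3.26, adjusted p = 0.60) averages these opposite values. Without Tg 2 the difference was 2.38 (adjusted p = 0.00045), and Samd9l was then called higher, beside 7.49% of all genes. Leaving out the lowest Tg array raises the difference by construction.

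**Figure D3:**
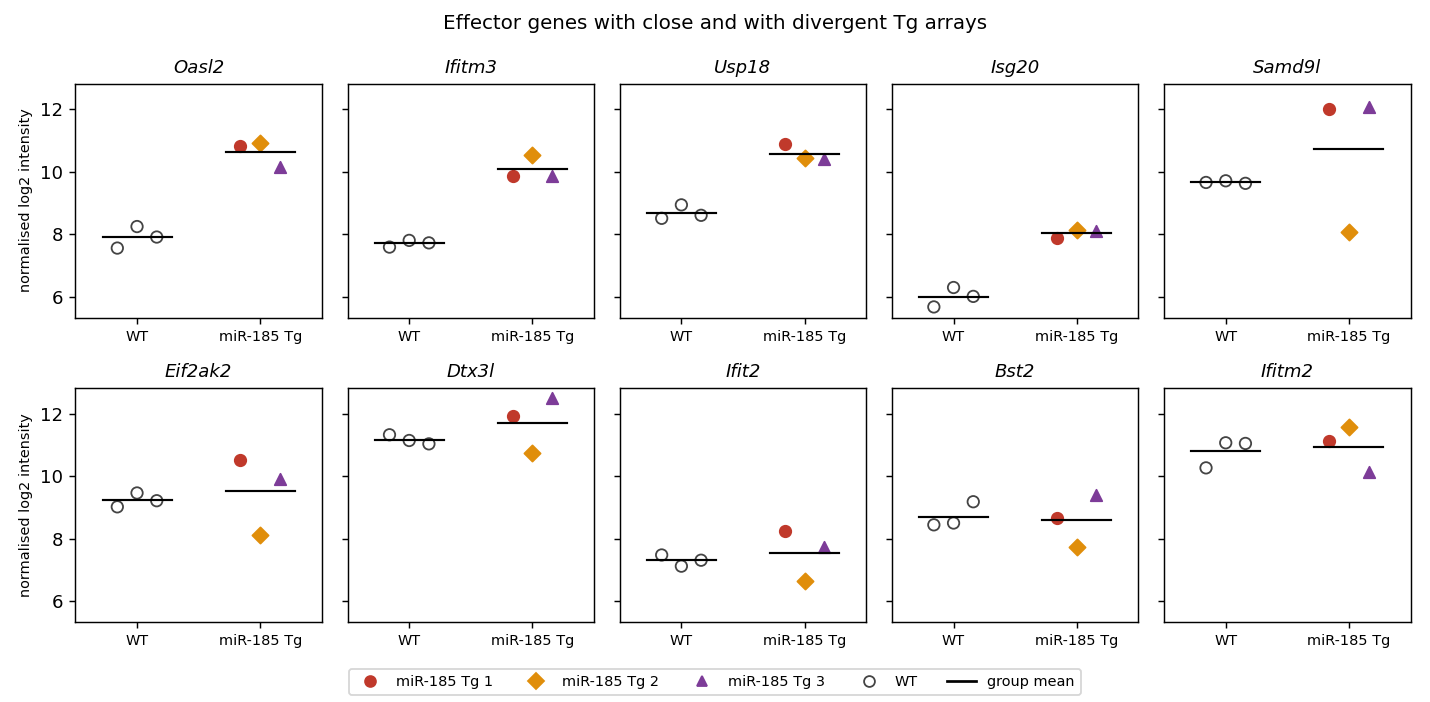
Normalised log2 intensity (y axis) of 10 effectors on the WT and miR-185 Tg arrays (x axis), 1 symbol per array, with a line at each group mean. Oasl2, Ifitm3, Usp18 and Isg20 have all 3 Tg arrays above WT. Their Tg arrays span 0.76 for Oasl2, 0.67 for Ifitm3, 0.48 for Usp18 and 0.27 for Isg20. Samd9l, Eif2ak2, Dtx3l and Ifit2 have Tg 2 below and the other Tg arrays above the WT arrays.

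The 3 Tg arrays agreed for most effectors and split for a few. Tg 1 lay above every WT array for 35 of the 37 effectors, Tg 2 for 29 and Tg 3 for 33, where 36.4%, 41.3% and 38.4% of all genes did so on these arrays. The median distance from the WT mean was 1.32 on Tg 1, 0.97 on Tg 2 and 0.89 on Tg 3. Tg 1 lay below every WT array for 0 effectors, Tg 2 for 6 and Tg 3 for 2, where 35.6%, 39.4% and 36.8% of all genes did so. The 6 effectors below WT on Tg 2 were Samd9l, Eif2ak2, Dtx3l, Bst2, Ifit2 and Trim25. For Samd9l, Eif2ak2, Dtx3l and Ifit2, Tg 1 and Tg 3 stood above all WT arrays at the same time, a pattern shown by 4 of 37 effectors and by 851 genes, or 6.85%, of the whole table. Tg 2 was the highest Tg array for 14 effectors and the lowest for 15, as it was for 44% and 36.9% of all genes. Tg 1 was the highest for 20 and the lowest for 4 (24.2% and 28% of all genes). Tg 3 was the highest for 3 and the lowest for 18 (31.8% and 35.1% of all genes). Without Tg 2, 7.49% of all genes were called higher. Effectors called higher in that fit included Eif2ak2 (0.98, adjusted p = 0.030), Dtx3l (1.04, adjusted p = 0.017), Trim30a (1.69, adjusted p = 0.0055), Sp100 (1.25, adjusted p = 0.0066) and Parp14 (1.37, adjusted p = 0.048). Ifit2 was not called (0.69, adjusted p = 0.081), nor were Bst2 (0.33, adjusted p = 0.51) and Trim25 (0.09, adjusted p = 0.74). Tg 2 was the lowest Tg array for all of these genes, so leaving it out raised their differences by construction.

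**Figure D4:**
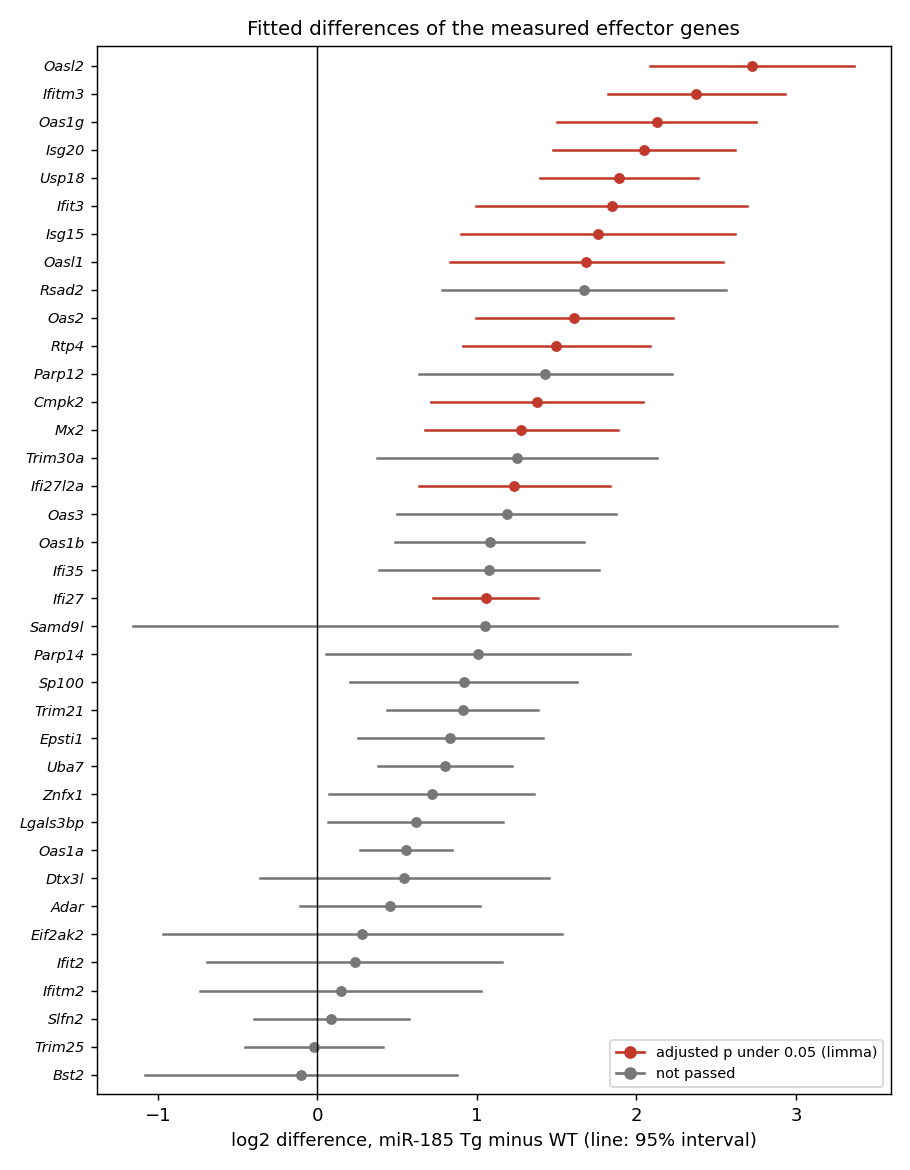
Fitted log2 difference between miR-185 Tg and WT (x axis) of each tested effector, with its 95% interval from limma as a line. Red marks the 14 effectors with an adjusted p under 0.05, which span 1.05 to 2.72, and grey the 23 others. The interval of Samd9l, from -1.15 to 3.26, is the widest. The values of Oas1a and Oas3, detected on no WT array, are fits and not bounds.

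The machinery upstream of the effectors was read from a list of 37 genes of interferon signalling, chosen by role. Of 24 tested, 5 rose and 0 fell, beside 2.56% higher and 1.68% lower over all genes tested. The median difference was 0.59, against -0.0014 over all genes. Irf7, the factor that amplifies interferon responses, read 5.43, 5.91 and 5.77 in WT and 8.26, 8.10 and 7.48 in Tg, a rise of 2.24 ± 0.28 (adjusted p = 0.0097). Dhx58, or LGP2, a helicase related to RIG-I, rose by 1.95 ± 0.24 (adjusted p = 0.0096). Socs3, an inhibitor of cytokine receptor signalling, rose by 1.33 ± 0.27 (adjusted p = 0.038), Irf9 by 1.10 ± 0.22 (adjusted p = 0.036) and Irf1 by 0.80 ± 0.17 (adjusted p = 0.041). Irf2 (0.71, adjusted p = 0.051), Stat2 (0.75, adjusted p = 0.17), the receptor chain Ifnar2 (0.60, adjusted p = 0.15) and Irf3 (0.36, adjusted p = 0.18) did not pass, although their groups did not overlap. Cgas, the cytosolic DNA sensor, was lower on every Tg array, with a difference of -0.79 that did not pass (adjusted p = 0.14). Over all genes tested, 14.9% lay above WT without overlap and 13.2% below. None of the 6 interferon genes with a probe could be tested. Ifng was detected on Tg 3 alone (6.35, against 4.28 to 4.46 on the other arrays), and Ifnb1, Ifna2, Ifna4, Ifnk and Ifnl3 on no array.

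The summed linear intensity of the 8 markers of the DN3 cells themselves was 26106 to 30516 in WT and 35026 to 41736 in Tg. That sum rested mainly on Lck and Cd3e, the brightest of them (13.55 to 13.77 and 12.94 to 13.12 on the log2 scale in WT). Il2ra, which encodes the CD25 of the gate, rose by 1.54 (8.96, 9.75 and 9.62 in WT and 11.09, 11.02 and 10.85 in Tg, adjusted p = 0.016), and the other 6 tested did not pass. Of these, Cd3e (0.57), Notch3 (0.75) and Lck (0.30) lay above WT without overlap, as did 14.9% of all genes tested. Ptcra (0.52), Notch1 (0.35) and Rag1 (-0.64) overlapped.

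Some markers of other cell types also moved with the effectors, and the part of these and of the DN3 markers in the effector differences was not tested. Of 7 macrophage and monocyte markers 3 were detected, and their summed linear intensity was 186 to 274 in WT and 305 to 514 in Tg. The sum rested on Lyz2 (5.75, 7.19 and 7.02 in WT and 8.29, 8.59 and 7.42 in Tg), while Adgre1, Itgam, Cd14 and Fcgr1 were detected on no array. Of 5 conventional dendritic cell markers, Cd74 was detected on 3 Tg arrays and H2-Aa on 2, both on no WT array, and Itgax, Flt3 and Zbtb46 on none (sums 103 to 106 in WT and 105 to 190 in Tg). Of 3 plasmacytoid dendritic cell markers besides the effector Bst2, Tcf4 was detected on all arrays, Siglech on 2 and Ccr9 on none (sums 1401 to 1716 in WT and 539 to 1882 in Tg). Among NK and innate T cell markers Nkg7 rose by 1.57 (adjusted p = 0.015), while Sox13 was lower on every Tg array (7.68, 7.65 and 7.63 in WT and 5.90, 7.25 and 5.90 in Tg, adjusted p = 0.10) and Zbtb16 differed by 0.21 (adjusted p = 0.45). Klrb1c, Ncr1 and Klrd1 were detected on no array (sums 997 to 1369 in WT and 2589 to 3669 in Tg, 3 of 6 markers detected). Neutrophil markers ran the other way, with sums of 107 to 374 in WT and 75.5 to 78.2 in Tg. The erythroid transcript Hbb-b1 was far higher on WT 2 and WT 3 (12.40 and 13.12) than on the other arrays (8.003 to 10.21). B cell marker sums were 481 to 683 in WT and 441 to 570 in Tg, and thymic epithelial sums 81.7 to 86.8 and 83.4 to 87.0.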

How the data were processed

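GenomeStudio 1.9.0 made the deposited table of probe intensity (means over beads), with no normalization, per the file headers. Its detection score is a fraction from 0 to 1, computed by GenomeStudio per the file headers, and its complement was used as the detection p. The sources used here do not say whether background was subtracted. The authors' series values are log2 of a deposited gene-level intensity table and served as an alternative.

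In limma 3.58.1 (R 4.3.3), background was modelled by normexp from those detection p (offset 16), followed by quantile normalization on the log2 scale. A probe was kept if 3 or more of the 6 arrays detected it (p under 0.05), which left 18597 of 45281, and the brightest kept probe on average stood for its gene. For 12427 genes, lmFit and eBayes (trend) compared miR-185 Tg with WT, and a call is an adjusted p (Benjamini-Hochberg) under 0.05. Differences are Tg minus WT on the normalised log2 scale, which understates dim genes. Exact permutation tests compared 3 pairs of genes, which the plan did not name. Each pair sets a gene that rose beside one that did not pass in these same arrays, so the tests give no independent support.

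Of 30774 names in the table, 48 belong to the effectors or their older symbols, 15953 matched a RefSeq symbol, 5818 a RefSeq synonym, and 8955 were kept as they stand. Isg15 and Xaf1 were found under gene IDs. Not every gene of the signalling list that was to be named is reported here. Promoter sequences are RefSeq's (GRCm38.p6). The effectors and lists were chosen with earlier results of these data known. Array values were to be given for called effectors, the 8 brightest others and those with probes of opposite sign, and were added for further effectors after their values were seen. Whether replicate numbers pair the samples is unknown. Correlations of same-numbered deviations were -0.25, 0.11 and -0.22, and those of differently numbered ones ran from -0.27 to 0.32. With 3 arrays per group these values cannot decide it.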

Additional observations from a re-analysis of the deposited data

How the results depend on the processing

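No effector was called lower under any alternative. Against 14 effectors called higher, array weights gave 33, the average of WT 2 and WT 3 gave 3, an adjusted p under 0.1 gave 22 and one under 0.01 gave 4, and fits without 1 array gave 0 to 27. Other settings of background, offset, normalization, filter, variance model, probe rule and table gave 10 to 18. Oasl2, Usp18 and Ifitm3 were called under all 14 settings other than thresholds and left-out arrays, and in 4 of the 6 fits without 1 array. The remaining effectors that rose were called under 7 to 13 of those 14 settings, with Oasl1 called under the fewest (7). With genes also matched by gene ID, a setting added after seeing the data, 16 were called, the additions being Trim21 and Oas1a (adjusted p = 0.04991 each). Fits with the replicate number as a block called 10, and whether the numbers pair the samples is unknown. The cause of these shifts was not tested.

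Over the whole table, 318 genes were higher and 209 lower. The counts were 206 and 106 with median scaling, 195 and 117 without a filter, 2343 and 2128 with array weights, 176 and 88 with the replicate block, 23 and 13 with WT 2 and WT 3 averaged, 606 and 445 at 0.1, 39 and 22 at 0.01, and 1 to 931 and 0 to 780 without 1 array. Of the signalling list, 5 genes higher became 2 with median scaling, 3 without a filter, 14 with array weights, 3 with the replicate block, 0 with WT 2 and WT 3 averaged, 2 at 0.01 and 0 to 7 without 1 array. The 0 genes lower became 1 with array weights and 0 to 1 without 1 array.

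The median effector difference of 1.07 was 0.80 without background correction, 0.75 from the authors' series values and 1.00 to 1.17 without 1 array. The sign turned only for effectors far from the threshold. Trim25 became 0.036 with median scaling and 0.26 with array weights. Without 1 array, Trim25 ranged from -0.19 to 0.090, Ifit2 from -0.12 to 0.69, Eif2ak2 from -0.21 to 0.98, Bst2 from -0.51 to 0.33, Ifitm2 from -0.17 to 0.55 and Slfn2 from -0.014 to 0.27.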

Other observations

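Samd9l was not the one gene with Tg 1 and Tg 3 above and Tg 2 below the WT arrays by a wide margin. In 10 genes of the table, chosen after their values were seen, each Tg array stood at least 1 log2 unit outside the WT range in that pattern. They were Samd9l, the interferon-inducible GTPase Gbp6, the histone demethylase Kdm7a and 7 transcripts named by clone or locus only. Gbp6 read 7.88, 8.09 and 7.99 in WT and 9.74, 6.66 and 9.85 in Tg. Kdm7a read 8.80, 8.74 and 8.61 in WT and 10.15, 6.32 and 10.44 in Tg. Neither passed the test (limma adjusted p = 0.64 and 0.92).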
